A study of Mus musculus with 9 samples.

Results

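The non-clustered delta protocadherins are single-copy genes of the cadherin superfamily. The 10 examined here were taken by symbol from the 24503 genes of the count table, by a rule that used none of their values. Earlier results of these data were known when the set was chosen. It holds Pcdh1, Pcdh7, Pcdh9 and Pcdh11x of the delta-1 subfamily and Pcdh8, Pcdh10, Pcdh17, Pcdh18 and Pcdh19 of the delta-2 subfamily. It also holds Pcdh20, whose place in the family differs between classifications. All 10 had an entry, and 9 had enough counts to be tested. Pcdh20 did not.

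The cells were primary neural stem cells from the cortex of mouse embryos at day 13.5, enriched as neurospheres and then grown on laminin with FGF and EGF. Every group carried the Phf2flox/flox genotype, which the labels class as wild type. A virus delivered the hairpin RNA that set the groups apart: shNT carried a non-targeting hairpin, while shRad21_1 and shRad21_2 carried different hairpins directed at Rad21. Messenger RNA was sequenced from 9 libraries, 3 per group. Rad21 encodes the kleisin subunit that closes the cohesin ring, and the comparison asks how the cells' transcripts differ when it is depleted. The labels give no time of harvest, no number of embryos and no statement that libraries came from separate cultures, so p-values here reflect only how far libraries of a group differ, and that difference may be technical.

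Delta protocadherins are transmembrane proteins with extracellular cadherin repeats that bind the same protein on a neighbouring cell, usually more weakly than classical cadherins do. In the developing brain they are known for patterned expression and for roles in cell sorting, cell movement, axon growth and synapse formation. The delta-1 proteins have the longer extracellular part and a conserved cytoplasmic motif that binds protein phosphatase 1, while several delta-2 proteins bind the WAVE complex, which drives actin branching. Unlike the clustered protocadherins, they do not share a promoter array or variable first exons.

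Library totals ran from 34780003 to 46644607 counts, and levels are given as CPM, in which library totals are made equal after a correction for composition. A gene with 3 counts has 0.0664 to 0.088 CPM, depending on the library. Rad21 stood at 531, 450 and 456 CPM in shNT, at 187, 174 and 178 CPM in shRad21_1 and at 82.0, 91.2 and 82.5 CPM in shRad21_2. It fell by 1.41 (SE 0.09, edgeR adjusted p = 1.66e-04) and by 2.49 (SE 0.09, adjusted p = 2.83e-07) on the log2 scale. Replicates 2 and 3 of shNT, and replicates 2 and 3 of shRad21_1, were closer to each other than any other pair within a group: the chi-square per gene was 3.21 and 2.19, against 23.3 to 71.4 for the other pairs. Replicate 1 of shRad21_1 stood apart from the other libraries of its group. Results for members that turn on these libraries are given with and without them, or with the close pairs summed. The stem cell markers Sox2 and Nes were present throughout. The mean level of Sox2 was 402, 344 and 386 CPM and that of Nes 1220, 1460 and 2490 CPM in shNT, shRad21_1 and shRad21_2. Stem cell markers did not all hold their level. Of 12 tested, 3 (Nes among them) were called higher and 5 lower with shRad21_2, beside 21.1% and 22.5% of all genes.

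The promoters of 4 of the 5 members called under shRad21_2 are shown (none was at hand for the fifth, Pcdh1) to give the sequence at the start of the genes described below. They run from 250 bases before to 50 bases after the RefSeq start in GRCm38.p6, the assembly behind the mm10 of the processing notes, and are written 5′ to 3′ on the gene's own strand, which is the minus strand for all 4. They lie at chr14:93890630-93890929 (Pcdh9), chr14:79771263-79771562 (Pcdh8), chr3:49757267-49757566 (Pcdh18) and chrX:133688944-133689243 (Pcdh19). Capitals mark CCCTC on either strand (GAGGG is the same letters on the other strand), the repeat after which the cohesin-halting factor CTCF is named.
Pcdh9: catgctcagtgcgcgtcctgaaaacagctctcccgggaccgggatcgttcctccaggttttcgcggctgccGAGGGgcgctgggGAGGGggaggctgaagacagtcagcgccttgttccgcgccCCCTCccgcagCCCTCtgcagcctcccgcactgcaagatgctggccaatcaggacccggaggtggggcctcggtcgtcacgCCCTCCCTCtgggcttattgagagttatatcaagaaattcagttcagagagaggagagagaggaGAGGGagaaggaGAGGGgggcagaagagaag
Pcdh8: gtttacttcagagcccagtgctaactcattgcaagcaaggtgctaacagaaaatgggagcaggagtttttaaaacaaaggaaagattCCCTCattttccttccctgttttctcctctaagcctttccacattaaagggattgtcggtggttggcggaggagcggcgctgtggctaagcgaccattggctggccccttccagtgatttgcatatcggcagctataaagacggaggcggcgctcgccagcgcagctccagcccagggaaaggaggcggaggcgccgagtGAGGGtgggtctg
Pcdh18: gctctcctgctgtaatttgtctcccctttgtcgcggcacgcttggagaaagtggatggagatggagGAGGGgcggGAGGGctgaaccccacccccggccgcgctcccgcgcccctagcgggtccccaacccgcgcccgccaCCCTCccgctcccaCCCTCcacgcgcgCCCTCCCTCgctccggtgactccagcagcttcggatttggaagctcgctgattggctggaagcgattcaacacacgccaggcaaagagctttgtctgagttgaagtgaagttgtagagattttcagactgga
Pcdh19: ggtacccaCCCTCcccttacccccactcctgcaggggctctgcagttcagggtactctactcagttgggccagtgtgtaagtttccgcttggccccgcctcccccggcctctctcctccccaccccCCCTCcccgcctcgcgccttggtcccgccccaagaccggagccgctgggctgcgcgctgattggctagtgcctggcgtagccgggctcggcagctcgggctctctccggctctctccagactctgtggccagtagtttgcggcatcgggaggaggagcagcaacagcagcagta

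RefSeq promoters were at hand for 8 of the 10 members. CCCTC, searched on both strands, was present in 6 of the 8, and in 65.0% of 27025 promoters of the same length. Among the members called under shRad21_2, Pcdh9 held 8 copies, Pcdh18 held 6, and Pcdh8 and Pcdh19 held 2 each. Among those not called or not tested, Pcdh7 also held 8 copies and Pcdh10 held 2, and Pcdh17 and Pcdh20 held none. Some of the Pcdh7 copies overlap each other, so overlap was not limited to called members. In Pcdh9 and Pcdh18 a pair of copies overlap in CCCTCCCTC. CCAAT, on both strands, was present in 7 of 8 members and in 37.9% of all promoters. TATAAA, on both strands, was found in Pcdh8 alone among the 8 and in 14.2% of all promoters. These matches describe letters in a window and are not binding sites.

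Levels of different genes were compared as CPM per kilobase of annotated exon. In shNT the most abundant member was Pcdh9 at 6.78 ± 0.952 (SD, n = 3), followed by Pcdh18 at 5.80 ± 0.191, Pcdh10 at 4.93 ± 0.964 and Pcdh7 at 4.89 ± 0.147 CPM per kilobase. Successive genes among these 4 overlapped in their ranges over libraries. Pcdh19 at 2.67 ± 0.210, Pcdh1 at 1.68 ± 0.194 and Pcdh11x at 1.32 ± 0.0620 CPM per kilobase came next, each below all libraries of the gene before it. Pcdh8 (0.118 ± 0.0496), Pcdh17 (0.0719 ± 0.0421) and Pcdh20 (0.0257 ± 0.0107 CPM per kilobase) were the lowest. Pcdh8 lay below all libraries of Pcdh11x, and Pcdh8 with Pcdh17, and Pcdh17 with Pcdh20, overlapped. The 7 most abundant members came from both subfamilies, and the 3 lowest were delta-2 genes and Pcdh20.

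The order differed with the hairpins. Pcdh18 was first in both knockdown groups, at 7.20 ± 0.144 with shRad21_1 and 6.97 ± 0.653 CPM per kilobase with shRad21_2, above all libraries of the next gene. Pcdh9 had rank 4 with shRad21_1 (4.40 ± 1.60) and rank 6 with shRad21_2 (1.39 ± 0.120 CPM per kilobase), where it overlapped with Pcdh11x above it and Pcdh1 below it. Pcdh19 had rank 5 in shNT and shRad21_1 and rank 2 in shRad21_2 (4.45 ± 1.22 CPM per kilobase), where its range overlapped that of Pcdh7. The 3 lowest genes were Pcdh8, Pcdh17 and Pcdh20 in every group.

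**Figure D1:**
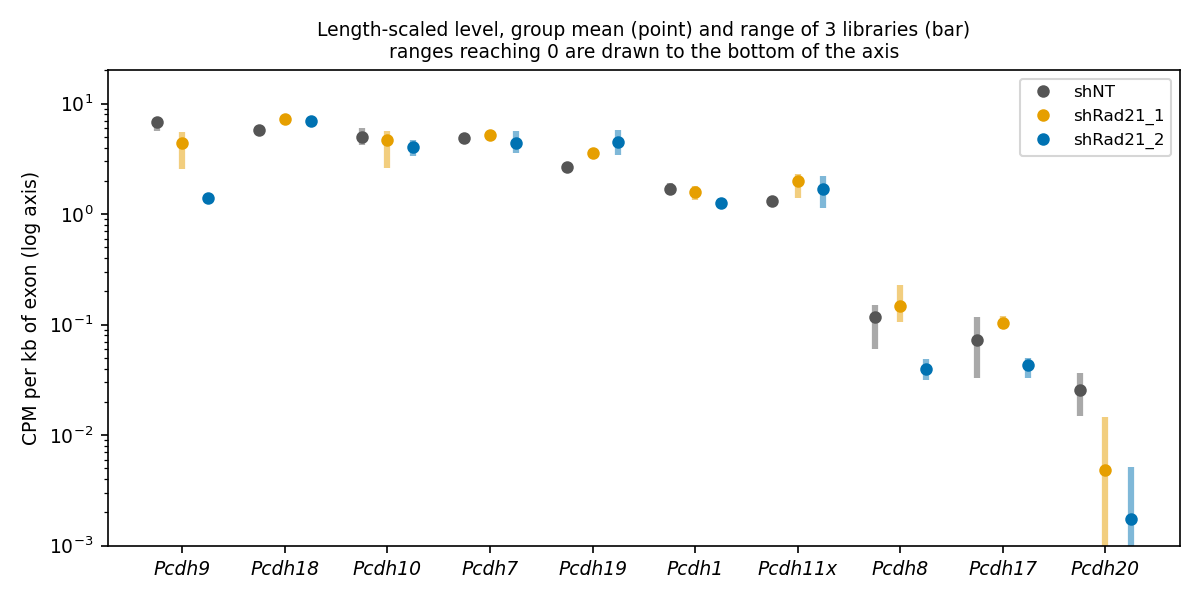
Mean level of each delta protocadherin per length of annotated exon (CPM per kilobase, log axis) in shNT, shRad21_1 and shRad21_2; points are means of 3 libraries and bars run from the lowest to the highest library. Pcdh9 goes from 6.78 in shNT to 1.39 in shRad21_2, while Pcdh18 is first in both knockdown groups.

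With shRad21_2, 5 of the 9 tested members passed the test against shNT: Pcdh18 and Pcdh19 were higher, and Pcdh1, Pcdh8 and Pcdh9 were lower. That is 55.6% of the members, beside 43.6% of all 13560 genes tested, and so near the background. By direction, 2 of 9 were called higher (22.2%, against 21.1% of all genes) and 3 of 9 lower (33.3%, against 22.5%). The libraries of the groups did not overlap for the same 5 members, beside 55.9% of all genes. The median log2 fold change of the 9 was -0.28, and 0.01 over all genes. Pcdh9 and Pcdh19 passed under each of the 19 alternative settings tried, while Pcdh1 passed under 9 of 19, Pcdh18 under 8 of 19 and Pcdh8 under 11 of 18.

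With shRad21_1, 0 of the 9 members passed in either direction by edgeR, beside 9.82% of all genes (4.19% higher and 5.63% lower). At an unadjusted p under 0.05 there were 4: Pcdh9, Pcdh11x, Pcdh18 and Pcdh19. DESeq2 and limma-voom each called 1 member, Pcdh18. The libraries of the groups did not overlap for those 4 members, 44.4% of the 9, beside 40.2% of all genes. The median log2 fold change of the 9 was 0.31, and 0.01 over all genes. The count over all genes was itself unsteady: 1331 genes were called, but 467 without replicate 2 of shNT, 460 without its replicate 3, 790 and 801 without replicates 2 and 3 of shRad21_1, and 130 with each close pair of libraries summed.

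Between the hairpins, 2 of 9 members (22.2%) were called, Pcdh8 and Pcdh9, both lower with shRad21_2. Over all genes 26.3% were called, 11.9% higher and 14.4% lower, or 3563 genes, which became 2045 and 2055 without replicates 2 and 3 of shRad21_1. The groups did not overlap for 3 members (33.3%), Pcdh8, Pcdh9 and Pcdh17, beside 39.2% of all genes. The median log2 difference was -0.25 over the 9 and 0.00 over all genes. Without replicate 1 of shRad21_1, 5 members were called lower, with Pcdh1, Pcdh10 and Pcdh17 joining Pcdh8 and Pcdh9. Calls over all genes also rose in that refit, to 4486. Without replicate 3 of shRad21_2, 1 was called lower (Pcdh9) and 1 higher (Pcdh19), beside 2531 calls over all genes. The 3 comparisons share libraries and are not independent of each other.

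**Figure D2:**
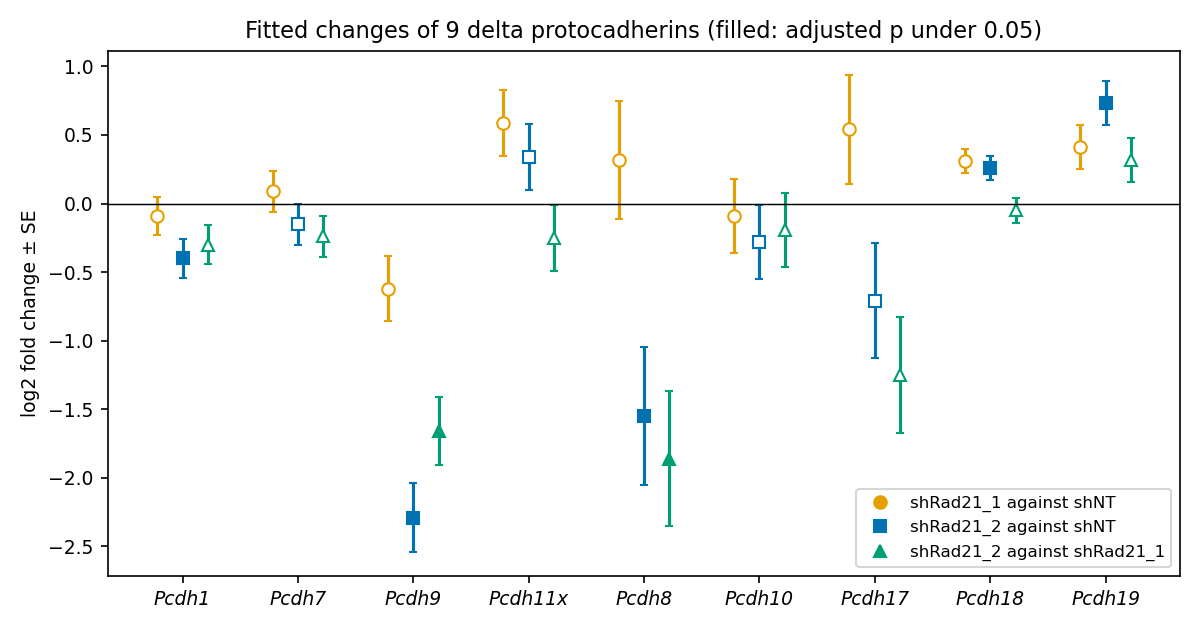
Fitted log2 fold change of each tested delta protocadherin in the 3 comparisons, with bars for ± SE and filled points for an edgeR adjusted p under 0.05. Pcdh9 lies at -2.29 for shRad21_2 against shNT and Pcdh19 at 0.73, and no member is filled for shRad21_1 against shNT.

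Among the delta-1 genes, Pcdh9 showed the largest fold difference of the 9 tested members. Pcdh9 encodes a delta-1 protocadherin expressed in the cortex, and its gene (ENSMUSG00000055421.8) spans 877 kb on the minus strand of chromosome 14, from 93013410 to 93890679 of GRCm38. The libraries of shNT held 38.5, 49.9 and 49.5 CPM, against 17.4, 34.7 and 37.4 CPM with shRad21_1 and 9.54, 10.1 and 8.53 CPM with shRad21_2. The 3 groups did not overlap, and replicate 1 of shRad21_1 was the lowest of its group by a wide margin. With shRad21_2 Pcdh9 fell by 2.29 on the log2 scale (SE 0.25, edgeR adjusted p = 1.05e-04), to 20.5% of the shNT level. It was also lower with shRad21_2 than with shRad21_1, by a log2 difference of -1.66 (SE 0.25, adjusted p = 0.00153). With shRad21_1 the log2 difference from shNT was -0.62 (SE 0.24, adjusted p = 0.129), which did not pass. Without replicate 1 of shRad21_1 that difference was -0.35 (adjusted p = 0.112), and without the first libraries of both shNT and shRad21_1 it was -0.46 and passed (adjusted p = 0.0225).

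The summed level of 10 astrocyte markers was lower in every knockdown library than in any shNT library, as the Pcdh9 level was. The Pcdh9 difference with shRad21_1 did not pass. The marker sum ran from 1060 to 1140 CPM in shNT, from 503 to 906 CPM in shRad21_1 and from 328 to 356 CPM in shRad21_2. Replicate 1 of shRad21_1 was the 503. Most of the shNT sum was Aldoc and Atp1b2. Aldoc averaged 388, 251 and 101 CPM, and Atp1b2 361, 166 and 33.5 CPM, in shNT, shRad21_1 and shRad21_2. Of the 10 markers, 9 were tested. With shRad21_2, 7 were called lower and 0 higher, beside 22.5% and 21.1% of all genes. With shRad21_1, 0 were called by edgeR, DESeq2 or limma-voom, and 3 had an unadjusted p under 0.05. Gja1, a gap junction gene of astrocytes and stem cells, averaged 108 CPM in shNT, 152 CPM in shRad21_1 and 155 CPM in shRad21_2 and was not called. Gfap, the intermediate filament of astrocytes, was at 4.62, 8.59 and 10.5 CPM in shNT, at 0.190, 14.6 and 15.1 CPM in shRad21_1 and at most 0.0856 CPM in shRad21_2. The sum of the 10 oligodendrocyte lineage markers was 2860 to 3000 CPM in shNT and 2750 to 3150 CPM in shRad21_2, which overlapped, and 3160 to 3340 CPM in shRad21_1, above both. Most of that sum was Olig1, which averaged 1610, 1850 and 1520 CPM in shNT, shRad21_1 and shRad21_2, and Olig2, which averaged 1060, 1220 and 1340 CPM. With shRad21_2, 6 of the 8 tested genes were called lower, and 1, Olig2, higher. Among the lower genes Pdgfra, the receptor of oligodendrocyte progenitors, averaged 62.3, 31.2 and 5.2 CPM. Sox10, which was not tested, was at most 0.142 CPM in any library and 0 in all 3 of shRad21_2. The part of these markers in the Pcdh9 result was not tested. In bulk libraries, fewer cells of a type and less RNA per cell cannot be told apart.

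Markers of other cells were also measured. The 17 neuronal genes summed to 1270 to 1390 CPM in shNT, 1240 to 1290 CPM in shRad21_1 and 1140 to 1260 CPM in shRad21_2. Map2 and Gap43 made up most of these sums and went in opposite directions. Map2 averaged 793, 885 and 989 CPM, and Gap43 413, 224 and 125 CPM, in shNT, shRad21_1 and shRad21_2. Slc17a6 was at 0 in all libraries. Of 14 tested, 2 were called higher and 6 lower with shRad21_2. The 12 stem cell genes summed to 8960 to 9280, 7350 to 8790 and 7700 to 8750 CPM. Of these, 3 were called higher (Nes, Pax6 and Prom1) and 5 lower (Fabp7, Slc1a3, Sox9, Notch1 and Msi1) with shRad21_2. Over all genes, 21.1% were called higher and 22.5% lower with that hairpin. Mesenchymal markers did not exceed 1.13 CPM in sum, with Dcn at 0. Endothelial markers summed to between 1.63 and 4.83 CPM, and microglial markers to between 0.314 and 3.16 CPM, with Aif1 and Cx3cr1 at 0 in all 9 libraries.

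Pcdh1, a delta-1 gene also known from epithelia and endothelia, lies on chromosome 18 from 38185914 to 38212053. Its level was 16.7, 13.6 and 13.9 CPM in shNT, 11.9, 15.8 and 13.8 CPM with shRad21_1, and 12.2, 11.1 and 10.3 CPM with shRad21_2. The shRad21_2 libraries were below all shNT libraries, while shRad21_1 overlapped with both other groups. Pcdh1 fell by 0.40 on the log2 scale with shRad21_2 (SE 0.14, edgeR adjusted p = 0.0395). It did not pass with no filter on low counts (adjusted p = 0.0518), without replicate 1, 2 or 3 of shNT (0.13, 0.0589 and 0.0676), without replicate 3 of shRad21_1 (0.0573) or without replicate 2 or 3 of shRad21_2 (0.0865 and 0.119). Nor did it pass with close pairs summed (0.0776) or with the first libraries of shNT and shRad21_1 both left out (0.0591). With shRad21_1 the log2 difference from shNT was -0.09 (SE 0.14, adjusted p = 0.723), or 0.01 without replicate 1 of either group. Between the hairpins it was -0.30 (SE 0.14, adjusted p = 0.128). That difference passed without replicate 1 of shRad21_1 (-0.40, adjusted p = 0.0398) and with both first libraries left out (-0.40, adjusted p = 0.026).

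Pcdh7 and Pcdh11x, the other delta-1 genes, did not pass in any of the 3 comparisons. Pcdh7, which like the rest of its subfamily binds protein phosphatase 1, spans 415 kb of chromosome 5 (57717967 to 58133230). Its level was 52.6, 52.9 and 50.1 CPM in shNT, 51.3, 56.9 and 56.9 CPM with shRad21_1, and 37.5, 60.0 and 42.5 CPM with shRad21_2. The shRad21_2 libraries spread on both sides of the shNT range, with replicate 2 above it and the others below. The log2 difference from shNT was 0.09 (95% interval -0.20 to 0.38, adjusted p = 0.763) with shRad21_1 and -0.15 (-0.44 to 0.14, adjusted p = 0.431) with shRad21_2. Without replicate 2 of shRad21_2, Pcdh7 passed as lower than in shNT (-0.37, adjusted p = 0.0115) and lower than in shRad21_1 (-0.46, adjusted p = 0.00852).

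Pcdh11x is X-linked and spans 620 kb (120290259 to 120910619). Its level was 17.6, 18.3 and 19.3 CPM in shNT, 19.6, 32.1 and 31.2 CPM with shRad21_1, and 15.7, 31.0 and 23.3 CPM with shRad21_2. All shRad21_1 libraries were above all shNT libraries, although replicate 1 was so by a small margin, and shRad21_2 lay on both sides of shNT. The log2 difference from shNT was 0.59 with shRad21_1 (SE 0.24, adjusted p = 0.152) and 0.34 with shRad21_2 (SE 0.24, adjusted p = 0.274). Without replicate 1 of shRad21_1 the first was 0.79 and passed (adjusted p = 0.0383). The hairpins differed by -0.25 (95% interval -0.72 to 0.22, adjusted p = 0.479).

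Among the delta-2 genes, Pcdh19 rose with shRad21_2. Pcdh19 is an X-linked gene whose protein acts together with N-cadherin, and mutations in it cause an epilepsy that mainly affects females. The gene (ENSMUSG00000051323.16) lies on the minus strand of chromosome X from 133582860 to 133688987. Its level was 30.4, 26.2 and 27.2 CPM in shNT, 36.9, 38.4 and 36.4 CPM with shRad21_1, and 43.2, 60.6 and 35.7 CPM with shRad21_2. All 6 knockdown libraries were above all 3 shNT libraries, and shRad21_2 spread widely around the narrow shRad21_1 range. Pcdh19 rose by 0.73 on the log2 scale with shRad21_2 (SE 0.16, edgeR adjusted p = 0.00545), and the alternatives gave 0.50 to 0.89. With shRad21_1 the log2 difference was 0.41 (SE 0.16, adjusted p = 0.142). It passed with only the groups compared (0.41, adjusted p = 0.0202) and without replicate 2 of shRad21_2 (0.41, adjusted p = 0.032). In the main fit the groups share an estimate of the spread. The hairpins differed by 0.32 (SE 0.16, adjusted p = 0.173), which passed without replicate 3 of shRad21_2 (0.48, adjusted p = 0.0437).

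Pcdh18, whose protein binds the adaptor Dab1, differed by less than Pcdh19 and with a smaller spread. It lies on the minus strand of chromosome 3 from 49743296 to 49757325. Its level was 30.1, 31.3 and 32.1 CPM in shNT, 39.5, 38.6 and 37.9 CPM with shRad21_1, and 33.7, 40.6 and 37.8 CPM with shRad21_2. All 6 knockdown libraries were above all 3 shNT libraries. Pcdh18 rose by 0.26 on the log2 scale with shRad21_2 (SE 0.09, edgeR adjusted p = 0.0329). With shRad21_1 the log2 difference was larger at 0.31 but had an adjusted p of 0.0505 by edgeR (SE 0.09), 0.0151 by DESeq2 and 0.0459 by limma-voom. The hairpins differed by -0.05 (95% interval -0.22 to 0.12, adjusted p = 0.711).

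The Pcdh18 calls sat near the threshold and depended on single libraries. With shRad21_2 the gene did not pass without replicate 1, 2 or 3 of shNT (adjusted p = 0.0852, 0.0897 and 0.0714), without replicate 2 or 3 of shRad21_1 (0.0541 and 0.0526), or without replicate 2 or 3 of shRad21_2 (0.0831 and 0.064). Scaling to library totals with no composition factor gave 0.19 (adjusted p = 0.105), and a fit of only the groups compared gave 0.26 (0.0575). Summing the close pairs gave 0.27 (0.126), and leaving out the first libraries of shNT and shRad21_1 gave 0.24 (0.0634). With shRad21_1 it passed without replicate 1 or 2 of shRad21_2 (0.0255 and 0.0351) and with only the groups compared (0.0209). The direction against shNT was the same in every one of these fits.

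Pcdh10 was the delta-2 gene with the highest CPM. Its protein recruits the WAVE complex through Nap1 (gene Nckap1) and is known for guiding forebrain axons. The gene lies on chromosome 3 from 45378398 to 45435623. Its level was 95.7, 72.4 and 66.9 CPM in shNT, 41.8, 89.0 and 90.3 CPM with shRad21_1, and 75.0, 66.0 and 52.8 CPM with shRad21_2. All groups overlapped, and replicate 1 of shRad21_1 was the lowest of the 9 libraries. The log2 difference from shNT was -0.09 (95% interval -0.61 to 0.43, adjusted p = 0.874) with shRad21_1 and -0.28 (-0.80 to 0.24, adjusted p = 0.424) with shRad21_2. The first turned to 0.08 (adjusted p = 0.896) without replicate 1 of shNT and to 0.20 (adjusted p = 0.504) without replicate 1 of shRad21_1. Without the latter the hairpins differed by -0.47 (adjusted p = 0.0492) in place of -0.19 (adjusted p = 0.63). The hairpins also differed by -0.47 (adjusted p = 0.0234) with both of these first libraries left out.

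**Figure D3:**
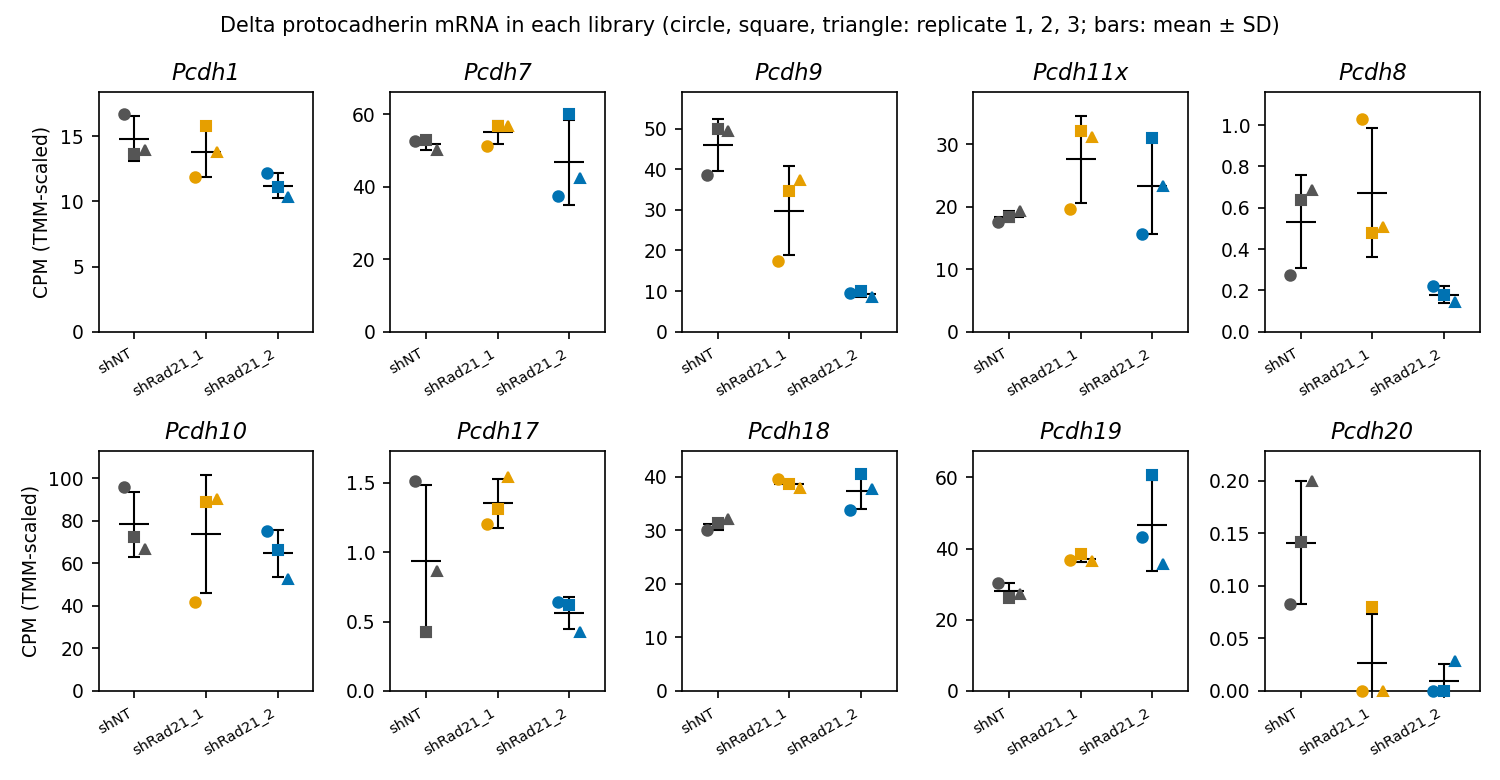
CPM of each delta protocadherin in every library of shNT, shRad21_1 and shRad21_2; circles, squares and triangles are replicates 1, 2 and 3, and bars show the mean ± SD, with each panel on its own axis from 0. Pcdh9 lies at 8.53 to 10.1 in shRad21_2, below every other library, and for Pcdh19 all 6 knockdown libraries lie above shNT.

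Pcdh8, Pcdh17 and Pcdh20 were measured at low counts, where single libraries carried 0 to 58 counts. Pcdh8, whose protein removes N-cadherin from synapses after activity, lies on chromosome 14 from 79766775 to 79771312. It had 68, 75 and 21 counts in all in shNT, shRad21_1 and shRad21_2. Its level was 0.275, 0.637 and 0.687 CPM in shNT, 1.03, 0.480 and 0.505 CPM with shRad21_1, and 0.221, 0.176 and 0.143 CPM with shRad21_2. The shRad21_2 libraries were below all others. Pcdh8 fell by 1.55 on the log2 scale with shRad21_2 against shNT (SE 0.50, edgeR adjusted p = 0.0295), and the difference from shRad21_1 was -1.86 (SE 0.49, adjusted p = 0.0212).

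Those Pcdh8 calls also rested on few libraries. The call against shNT was lost by limma-voom (adjusted p = 0.0508), without replicate 2 or 3 of shNT (0.091 and 0.106) and without replicate 1, 2 or 3 of shRad21_2 (0.0507, 0.071 and 0.0878). The call between hairpins was lost without replicate 2 or 3 of shRad21_2 (0.0523 and 0.0722). Both calls were also lost with close pairs of libraries summed (0.0991 against shNT and 0.0594 between hairpins). With shRad21_1 the log2 difference of Pcdh8 from shNT was 0.32 (SE 0.43, adjusted p = 0.694). It turned to -0.13 (adjusted p = 0.891) without replicate 1 of shRad21_1.

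Pcdh17, known for the assembly of synapses in corticobasal circuits and for axon extension through the WAVE complex, lies on chromosome 14 from 84443563 to 84539002. It had 112, 151 and 65 counts in shNT, shRad21_1 and shRad21_2. Its level was 1.51, 0.425 and 0.865 CPM in shNT, 1.20, 1.31 and 1.54 CPM with shRad21_1, and 0.642, 0.616 and 0.428 CPM with shRad21_2. The shNT libraries spread over the range of both other groups, which did not overlap each other. The difference between hairpins was -1.25 on the log2 scale (SE 0.42) with an adjusted p of 0.0505 by edgeR. It passed by DESeq2 (0.0308), under the stricter filter (0.0478), on library totals (0.0455) and with only the groups compared (0.0269). It also passed without replicate 1 or 2 of shNT (0.027 and 0.0267) or without replicate 1 of shRad21_1 (0.0442). With the first libraries of shNT and shRad21_1 both left out it passed as well (0.0183). Against shNT the log2 differences were 0.54 (SE 0.40, adjusted p = 0.434) and -0.71 (SE 0.42, adjusted p = 0.198), and the latter passed without replicate 2 of shNT (-1.06, adjusted p = 0.0483).

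Pcdh20, a less studied member, lies on chromosome 14 from 88464743 to 88471396 and was left out by the filter on low counts. It had 18 counts over the 3 shNT libraries (0.0825, 0.142 and 0.2 CPM), 3 in shRad21_1, all in replicate 2, and 1 in shRad21_2, in replicate 3. The ratio to shNT, after library totals, was 0.184 for shRad21_1 (exact 95% interval 0.0348 to 0.632) and 0.0602 for shRad21_2 (0.00144 to 0.381). These intervals cover counting error only. In the fit with no filter, which includes the spread between libraries, the edgeR adjusted p was 0.249 for shRad21_1 and 0.0468 for shRad21_2.

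In position, 4 of the 10 members lie on chromosome 14, in the order Pcdh8, Pcdh17, Pcdh20 and Pcdh9, separated by 4.67, 3.93 and 4.54 Mb. These intervals hold 1, 1 and 0 tested genes. The nearest tested genes around Pcdh9, apart from members, are Tdrd3 at 5470 kb, which encodes a Tudor domain protein, and Dach1 at 3900 kb, which encodes a transcription cofactor. Neither passed with shRad21_2: the log2 differences were -0.17 (SE 0.09, adjusted p = 0.148) and -0.09 (SE 0.43, adjusted p = 0.879), beside -2.29 for Pcdh9. Of the 15 distinct nearest tested genes that flank the members, 0 were called with shRad21_1, beside 9.82% of all genes, and 4 with shRad21_2, beside 43.6% (Stim2 and Pabpc4l higher, Arap2 and Nap1l3 lower). Nap1l3 did not pass without replicate 1 of shNT (-0.48, adjusted p = 0.057). The 4 are beside Pcdh7, Pcdh10, Pcdh18 and Pcdh11x, at gaps of 1010 to 4470 kb.

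Each gene of the set was also checked for overlapping genes, since the labels and processing notes give no strand setting for the counting. Pcdh7, Pcdh8, Pcdh10 and Pcdh19 share up to 2235, 656, 154 and 57 exon bases with a gene on the opposite strand. These are upper bounds, because a base in several transcripts of the partner was counted for each. The partners of Pcdh7 and Pcdh10 had 1 and 0 counts over all libraries. Those of Pcdh8 and Pcdh19 had no entry in the count table under their annotated symbols, so their counts could not be checked. Reads from such a pair cannot be told apart without strand.

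The other non-clustered protocadherins and large cadherins included a larger difference than any tested member. Of 11 in the list, 8 were tested. With shRad21_2, 1 was higher and 2 lower, beside 21.1% and 22.5% of all genes. The median log2 fold change was -0.13, beside 0.01 over all genes. For shRad21_1, 0 were higher and 1 lower (median -0.38), beside 4.19% and 5.63% of all genes. Pcdh15, a protocadherin of the hair cell tip link, was at 59.8, 44.1 and 41.7 CPM in shNT, 7.69, 23.0 and 22.8 CPM with shRad21_1 and 3.19, 4.08 and 1.91 CPM with shRad21_2. It fell by 3.99 on the log2 scale with shRad21_2 (SE 0.42, edgeR adjusted p = 8.05e-05). Its fall of 1.45 with shRad21_1 (SE 0.37, adjusted p = 0.0369) did not pass without replicate 1, 2 or 3 of shNT (0.104, 0.0942 and 0.0837), replicate 2 or 3 of shRad21_1 (0.0509 and 0.052) or replicate 1 of shRad21_2 (0.0546). Nor did it pass with close pairs summed (0.125) or with only the groups compared (0.0617). As in Pcdh9, replicate 1 was the lowest library of shRad21_1.

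Fat3, a giant cadherin of planar polarity and neuronal shape, rose by 1.71 with shRad21_2 (SE 0.36, adjusted p = 0.00385), from 24.1, 19.1 and 18.6 CPM to 51.6, 116 and 34.1 CPM. Replicate 2 of shRad21_2 was the highest library for Fat3, as it was for Pcdh19. Fat4, named after its value was seen, fell by 1.34 with shRad21_2 (SE 0.30, adjusted p = 0.005).

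Classical and related cadherins, which include stronger adhesion molecules with which delta protocadherins interact, were tested for 10 of 19 genes. With shRad21_2, 1 was higher (Cdh20) and 4 were lower (Cdh10, Cdh11, Cdh19 and Cdh22), beside 21.1% and 22.5% of all genes. The median log2 fold change was -0.35. Cdh22 fell by 2.75 (SE 0.25, adjusted p = 3.57e-05) and Cdh19 by 2.06 (SE 0.10, adjusted p = 1.38e-06). With shRad21_1, 1 was higher and 1 lower (median -0.11), beside 4.19% and 5.63% of all genes. The higher was Cdh2, N-cadherin, the partner of Pcdh8 and Pcdh19 at the membrane, named after its value was seen: it was at 232, 228 and 216 CPM in shNT and 357, 344 and 336 CPM with shRad21_1, and rose by 0.62 (SE 0.07, adjusted p = 8.43e-04). With shRad21_2 it was at 223, 205 and 211 CPM, a log2 difference of -0.08 from shNT (SE 0.07, adjusted p = 0.353). The fall of Cdh22 by 0.97 with shRad21_1 (SE 0.23, adjusted p = 0.0296) did not pass without replicate 1, 2 or 3 of shNT (0.0515, 0.103 and 0.105). Nor did it pass with close pairs summed (0.122) or with only the groups compared (0.0682).

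Catenins, which link cadherins to actin, were tested for 8 of 9 genes. With shRad21_2, 0 were higher and 2 lower (median 0.01), beside 21.1% and 22.5% of all genes. For shRad21_1, 0 were called by edgeR (median -0.01), beside 9.82% of all genes. There 3 had an unadjusted p under 0.05, with 3 called by DESeq2 and 1 by limma-voom. Arvcf fell by 0.85 with shRad21_2 (SE 0.15, adjusted p = 0.00157). Ctnna2, alpha-N-catenin, was at or under 1.07 CPM and fell by 1.64 (SE 0.48, adjusted p = 0.0197), a call lost without replicate 1 or 3 of shNT (0.0557 and 0.0639) or replicate 2 or 3 of shRad21_2 (0.0659 and 0.0664). Beta-catenin, Ctnnb1, had a log2 difference of 0.09 with shRad21_2 (SE 0.08, adjusted p = 0.415).

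Genes of the WAVE complex and the Ena/VASP actin regulators, onto which several delta-2 proteins act, were all 14 tested. With shRad21_2, 3 were higher (Enah, Vasp and Evl of the Ena/VASP family) and 2 lower (Cyfip1 and Cyfip2). Over all genes, 21.1% were higher and 22.5% lower. The median was 0.02, and the call of Enah was lost with close pairs summed (edgeR adjusted p = 0.0617). Evl rose by 0.66 (SE 0.08, adjusted p = 1.36e-04) and Cyfip2, a WAVE complex subunit, fell by 1.22 (SE 0.12, adjusted p = 5.8e-05), from 20.7, 20.5 and 20.6 CPM to 9.43, 8.74 and 8.36 CPM. Nckap1, the subunit through which Pcdh10 acts, had a log2 difference of -0.05 (SE 0.08, adjusted p = 0.672). The call of Cyfip1 (-0.18, adjusted p = 0.0337) was lost without any single shNT library (0.0524, 0.122 and 0.113), without replicate 2 or 3 of shRad21_1 (0.0669 and 0.0662) and without replicate 1 of shRad21_2 (0.0554). The Cyfip1 call was also lost with close pairs summed (0.191), with no filter (0.077) and with only the groups compared (0.0711). With shRad21_1, 0 of 14 were called by edgeR (median 0.05), beside 9.82% of all genes. There 2 had an unadjusted p under 0.05, with 1 called by DESeq2 and 0 by limma-voom.

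The 9 cytoplasmic partners, which include the phosphatase 1 subunits bound by delta-1 proteins, were all tested. With shRad21_2, 2 were higher (Set and Mapk14) and 1 lower (Fyn), beside 21.1% and 22.5% of all genes, with a median of 0.17. For shRad21_1, 1 was higher (Set), beside 4.19% of all genes, with a median of 0.04. Set, a histone chaperone gene, rose by 0.57 with shRad21_2 (SE 0.07, adjusted p = 2.4e-04), and its rise of 0.26 with shRad21_1 (SE 0.07, adjusted p = 0.0482) was lost without any single library of shNT or shRad21_1 (0.0626 to 0.198) and with the replicate block (0.0723). The call of Set with shRad21_1 was also lost with close pairs summed (0.352). Fyn, a Src family kinase, fell by 0.68 with shRad21_2 (SE 0.08, adjusted p = 1.43e-04). The call of Mapk14 (0.27, adjusted p = 0.013) was lost without replicate 2 or 3 of shNT (0.0551 and 0.0602). It was also lost on library totals (0.051) and with close pairs summed (0.102). Dab1, the partner of Pcdh18, had a log2 difference of 0.36 with shRad21_2 (SE 0.19, adjusted p = 0.157), and none of the 3 phosphatase 1 subunits passed.

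The genes most like a member over the 9 libraries were ranked by the root mean square difference in centred log2 CPM. The naming rule asked for members called with both hairpins, and there were 0, so the 2 shown were chosen after their values were seen. Nearest to Pcdh9 were Atp1b1, a sodium pump subunit, with a root mean square difference of 0.109, and Pxdc1 with 0.129. Relative to the shNT mean, Pcdh9 stood at log2 levels of -1.40, -0.41 and -0.30 with shRad21_1, and Atp1b1 at -1.38, -0.56 and -0.52. Nearest to Pcdh19 were Rasal2, a Ras GTPase activating protein gene, with 0.0863, and Arid2, a chromatin remodelling subunit gene, with 0.0918. Pcdh19 stood at 0.63, 1.12 and 0.35 with shRad21_2, and Rasal2 at 0.85, 1.06 and 0.36, so that replicate 2 was the highest and replicate 3 the lowest of that group for both genes.

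**Figure D4:**
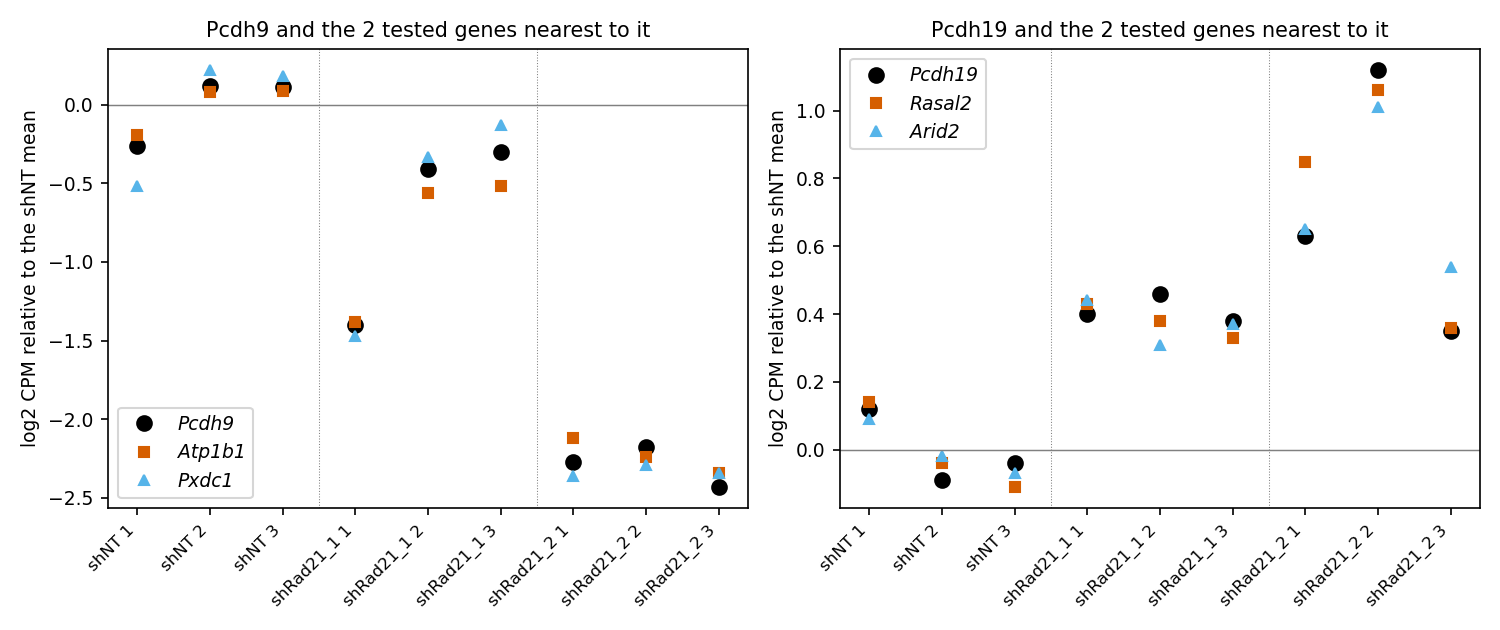
Log2 CPM relative to the shNT mean in each of the 9 libraries for Pcdh9 with Atp1b1 and Pxdc1 (left) and Pcdh19 with Rasal2 and Arid2 (right); each point is 1 library. Replicate 1 of shRad21_1 is the lowest of its group for the genes on the left, at -1.40 for Pcdh9, and replicate 2 of shRad21_2 is the highest for those on the right, at 1.12 for Pcdh19.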

How the data were processed

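Messenger RNA of 9 libraries (3 each of shNT, shRad21_1 and shRad21_2) was analysed from the deposited table of raw counts per gene symbol. Per the submitters' processing notes, reads passed through FastQC, cutadapt, Trim Galore, Bowtie2 and RSEM on mm10. Those notes give no versions, annotation, strand setting or rounding of RSEM estimates.

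Of 24503 genes, 6715 were 0 throughout, and filterByExpr by group left 13560. edgeR 4.0.16 in R 4.3.3 fitted the 3 group means over all 9 libraries (TMM scaling, quasi-likelihood test, two-sided). Calls are at a Benjamini-Hochberg adjusted p, over all 13560 genes, under 0.05. CPM used TMM-scaled totals. SE is the log2 fold change over the root of the test's F. Positions and exon lengths came from GENCODE, matched by symbol for 13033 genes (96.1%), and promoters from RefSeq. The test was tried on simulated counts. Same-numbered libraries of shNT and shRad21_1 deviated together (correlations of 0.24, 0.12 and 0.12, although replicates 2 and 3 crossed gave 0.16 and 0.15), so blocked values are given for that comparison where they change a call; the labels state no pairing.

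The settings varied were scaling (DESeq2 1.42.0 size factors, or library totals alone), the DESeq2 Wald test, limma-voom (limma 3.58.1), no filter, a stricter filter (1 CPM in 3 libraries), only the groups compared, a replicate block, each library left out, close pairs summed, and the first libraries of shNT and shRad21_1 left out. Named were Rad21, all members, flanking tested genes, 2 genes of each list with the smallest p for shRad21_2, and the nearest genes in pattern (mean log2 CPM of at least 1, prior count 2). Further genes of the lists (Fat4, Cdh2, Cdh10, Cdh11, Cdh20, Ctnnb1, Cyfip1, Enah, Vasp, Nckap1, Mapk14 and Dab1) and the markers given singly were named after their values were seen. The members and lists were chosen with earlier results of these data known.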

Additional observations from a re-analysis of the deposited data

How the results depend on the processing

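Among refits of member log2 fold changes, 445 kept direction and side of the threshold, 25 newly passed, 31 no longer passed and 9 turned direction. None of the turned values was called. With shRad21_1, leaving out single libraries gave -0.20 to 0.01 for Pcdh1, -0.13 to 0.54 for Pcdh8 and -0.26 to 0.20 for Pcdh10 (0.08 without replicate 1 of shNT), and leaving out both first libraries gave 0.10, -0.43 and 0.36. Between the hairpins Pcdh18 ran from -0.11 to 0.02. Counts over all genes were 2042 (DESeq2 Wald) and 130 (close pairs summed) for shRad21_1 in place of 1331, 3707 (pairs summed) for shRad21_2 in place of 5917, and 2233 (only the groups compared) and 1270 (pairs summed) between the hairpins in place of 3563. Leaving out single libraries gave 460 to 1599 and 2045 to 4486 for shRad21_1 and between the hairpins. Members called higher with shRad21_1 numbered 1 by DESeq2, 1 by limma-voom and 2 with only the groups compared, and 0 to 2 over single omissions. With both first libraries left out, 1 was called lower with shRad21_1, and 5 between the hairpins, beside 1577 and 4728 calls over all genes. With shRad21_2, 1 in place of 2 was called higher under library totals, only the groups compared, pairs summed or both first libraries left out, and 1 to 2 over single omissions. With pairs summed, 1 in place of 3 was called lower, and 1 to 3 over single omissions. Between the hairpins 1 in place of 2 was called lower with pairs summed, 1 to 5 over single omissions, and 0 to 1 higher. The causes of these changes were not tested, beyond the fewer libraries that summing and omission leave.

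Same-numbered libraries deviated from their group means with correlations of 0.02 to 0.09 in the 6 pairs with shRad21_2, so the numbers were not taken as pairs there. The replicate block gave 1436, 6066 and 3643 genes for shRad21_1, shRad21_2 and between the hairpins, and Pcdh1 did not pass with it for shRad21_2 (-0.40, adjusted p = 0.0524). It changed the call of no other member. Depth limits Pcdh8, Pcdh17 and Pcdh20, and Pcdh8 could not be fitted under the stricter filter.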

Other observations

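With shRad21_2 a larger share of long than of short genes was called lower, and Pcdh7, Pcdh9 and Pcdh11x are among the longest. Of 433 tested genes spanning at least 300 kb, 36.7% were called lower and 12% higher. The shares were 31.3% and 19.4% for the 1521 genes of 100 to 300 kb, which include Pcdh19, and 21.0% and 21.8% for the 11079 shorter genes, which include Pcdh1, Pcdh8, Pcdh10, Pcdh17 and Pcdh18. With shRad21_1 the longest genes were called more often in both directions, 9.24% lower and 6.93% higher, against 5.15% and 3.75% of the shortest, with a median log2 fold change of 0.01. The bins were chosen after the values were seen, and no test was made. Within the longest bin the members differed: Pcdh9 (877 kb) was called lower, and Pcdh7 (415 kb) and Pcdh11x (620 kb) were not called, with log2 fold changes of -2.29, -0.15 and 0.34.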
